A study of Homo sapiens with 6 samples.

Results

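The genes described here are 10 members of the interleukin-1 (IL1) family and its machinery, taken by gene name: the cytokines IL33, IL1A, IL1B, IL18 and IL36G, the receptor antagonist IL1RN, the receptor chains IL1R1, IL1RAP and IL1RL1, and the protease CASP1. They are 10 of 58735 entries in the expression table. The members were chosen with the comparison between the culture states already known. IL33 was selected on its measured level, which was high and widely varying in floating spheres. The members' values in that comparison are therefore given as a description with no test. A mean of at least 0.5 FPKM, fragments per kilobase of gene scaled to library size, over the 6 libraries was needed to enter the fit across genes, and 8 of the 10 members reached it; IL36G and IL1RN did not.

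SKOV3, a human ovarian cancer cell line, was profiled by bulk RNA sequencing in 2 culture states with 3 libraries each. Floating spheres (FS), labelled as stem cells, had grown in ultra-low-attachment plates in DMEM/F12 medium with B27 serum replacement. Sphere-differentiated cells (SDC), labelled as adherent cells, came from such spheres replated in DMEM with fetal bovine serum, in which they attached; the sample titles say only stem cells and adherent cells, and the names used here come from the study's text. The comparison asks which genes differ between the sphere state and its differentiated derivative. For the sphere formation assay the study's methods also list EGF, bFGF and insulin in the sphere medium, without naming these libraries. The medium with its supplements, the serum and the attachment changed together, so their parts cannot be told apart.

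Cytokines of the IL1 family are alarm signals. IL1α (from IL1A), IL1β (from IL1B) and IL36γ (from IL36G) act through receptors that pair with the shared accessory chain IL1RAP, as does IL33, whose own receptor chain is ST2, the product of IL1RL1. IL1α and IL33 can act as alarmins, proteins held in the cell, often in the nucleus, and released when it is damaged, whereas IL1β and IL18 are made as inactive precursors that caspase-1 (from CASP1) cleaves within inflammasomes. Receptor binding recruits MYD88 and the IRAK kinases and activates NF-κB, which turns on cytokines, chemokines and its own inhibitors.

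Across the series, 14725462 to 16376331 fragments per library could be recovered from the FPKM values and gene lengths. The median gene's log2 standard deviation over 3 libraries was 0.279 in floating spheres, while sphere-differentiated cells had 0.154. The sample labels do not say whether the replicates were separate cultures. The study's reporting summary gives a minimum of 3 biological replicates in general, without naming these libraries. The p-values below measure only the spread between these libraries. Of 8 genes typical of ovarian carcinoma lines, 7 reached 1 FPKM in at least 1 library, and MUC16 did not. Their summed level was 201 to 446 FPKM in floating spheres and 725 to 813 FPKM in sphere-differentiated cells. In the limma fit described below 4 of them passed, beside 33.6% of all genes tested. As differences in log2(FPKM + 0.5), KRT7 (-2.19, limma adjusted p = 0.0114), EPCAM (-2.36, limma adjusted p = 0.000497) and KRT18 (-1.07, limma adjusted p = 0.00326) fell and MSLN (0.79, limma adjusted p = 0.0207) rose in floating spheres. The part of this shift in the members' values was not tested.

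The members lie in a few neighbourhoods of the genome (coordinates in hg38, from the GENCODE 29 annotation). IL33 stands alone among them at chr9:6215786-6257983 on the plus strand. IL1A (chr2:112773915-112784590, minus strand), IL1B (chr2:112829751-112836903, minus strand), IL36G (chr2:112973203-112985665, plus strand) and IL1RN (chr2:113107214-113134016, plus strand) share a ligand cluster, and IL1R1 (chr2:102064544-102179874) and IL1RL1 (chr2:102311502-102352037), both on the plus strand, lie in a receptor cluster on the same chromosome. IL18 (chr11:112143251-112164117) and CASP1 (chr11:105025443-105035250) are on the minus strand of chromosome 11, and IL1RAP is at chr3:190514051-190659750 on the plus strand.

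RefSeq promoter windows of 300 bases, covering 250 bases before and 50 after a start on GRCh38.p14, were given for 8 of the 10 members. Those of IL33, IL1A and IL1B are printed because these ligands had the highest mean levels in floating spheres, taking the window whose start lies nearest the GENCODE 5′ end. Each is read 5′ to 3′ on the strand of its gene, chr9:6215557-6215856 (plus) for IL33, chr2:112784444-112784743 (minus) for IL1A and chr2:112836730-112837029 (minus) for IL1B. Capitals mark a match, on either strand, to 5 motifs: the NF-κB consensus (GGGRNNYYCC), AP-1 (TGANTCA), the TATA box (TATAAA), C/EBP (TTNNGNAAT) and the STAT element GAS (TTCNNNGAA). Here N is any base, R is A or G, and Y is C or T.
IL33: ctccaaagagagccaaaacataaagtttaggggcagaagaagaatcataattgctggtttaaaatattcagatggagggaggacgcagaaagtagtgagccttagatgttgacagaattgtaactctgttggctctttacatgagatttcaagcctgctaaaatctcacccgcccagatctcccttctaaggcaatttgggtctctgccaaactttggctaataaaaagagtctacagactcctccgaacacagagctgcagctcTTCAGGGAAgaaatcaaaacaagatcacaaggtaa
IL1A: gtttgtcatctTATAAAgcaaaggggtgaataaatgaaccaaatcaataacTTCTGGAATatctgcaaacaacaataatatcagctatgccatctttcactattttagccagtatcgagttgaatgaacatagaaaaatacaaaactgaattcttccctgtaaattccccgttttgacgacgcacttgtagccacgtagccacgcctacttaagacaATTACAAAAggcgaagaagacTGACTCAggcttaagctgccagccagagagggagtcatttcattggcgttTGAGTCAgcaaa
IL1B: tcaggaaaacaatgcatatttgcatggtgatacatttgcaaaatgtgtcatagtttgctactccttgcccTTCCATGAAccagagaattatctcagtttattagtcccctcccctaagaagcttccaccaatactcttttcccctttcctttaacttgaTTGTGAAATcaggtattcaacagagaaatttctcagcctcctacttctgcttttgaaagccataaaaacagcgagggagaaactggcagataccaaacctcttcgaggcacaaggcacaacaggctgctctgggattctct
IL33 held 1 match, to GAS. The IL1A window held 2 AP-1, 1 TATA and 2 C/EBP matches, and that of IL1B 1 GAS and 1 C/EBP match. Over 35116 RefSeq promoter windows of this length the NF-κB consensus occurred in 11.3%, AP-1 in 7.71%, TATA in 11.5%, C/EBP in 11% and GAS in 7.66%. The NF-κB consensus was found in none of these 3 windows, and 0 of the 16 windows of the 8 members held it. Some of these windows overlap, as both IL1A windows do, so they are not separate cases. The consensus was chosen after the matches of a looser pattern had been seen, so its absence is read no further. A match describes the letters and is not a shown binding site.

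IL33, which signals through ST2 to NF-κB, was the member with the highest level in each floating sphere library. It stood at 16.0, 182 and 35.1 FPKM in floating sphere replicates 1, 2 and 3, against 1.63, 1.46 and 1.85 FPKM in sphere-differentiated replicates 1, 2 and 3, which is 875, 9662 and 1940 recovered fragments against 84, 68 and 99. Every floating sphere library was above every sphere-differentiated one, and replicate 2 was far above the other spheres. The means were 77.8 ± 90.9 FPKM in floating spheres and 1.65 ± 0.196 FPKM in sphere-differentiated cells (SD, n = 3 each), a ratio of means of 47.2 that became 15.5 without floating sphere replicate 2. On the scale of log2(FPKM + 0.5), used for all differences below, the floating spheres were higher by 4.47 (SE 0.76), and by 3.50 without floating sphere replicate 2 and 5.24 without replicate 1.

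The sphere libraries disagreed on IL33 more than on nearly any other gene. This spread was part of what selected IL33, so its rank among genes is a description only. The highest floating sphere library held 11.3 times the level of the lowest, against 1.27 times among sphere-differentiated cells. Its log2 standard deviation was 1.77 in floating spheres, while sphere-differentiated cells had 0.132, and the floating sphere value lay at percentile 99.7 of the 15719 genes tested. Without floating sphere replicate 2 it was 0.781, and without replicate 3 it was 2.45.

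**Figure D1:**
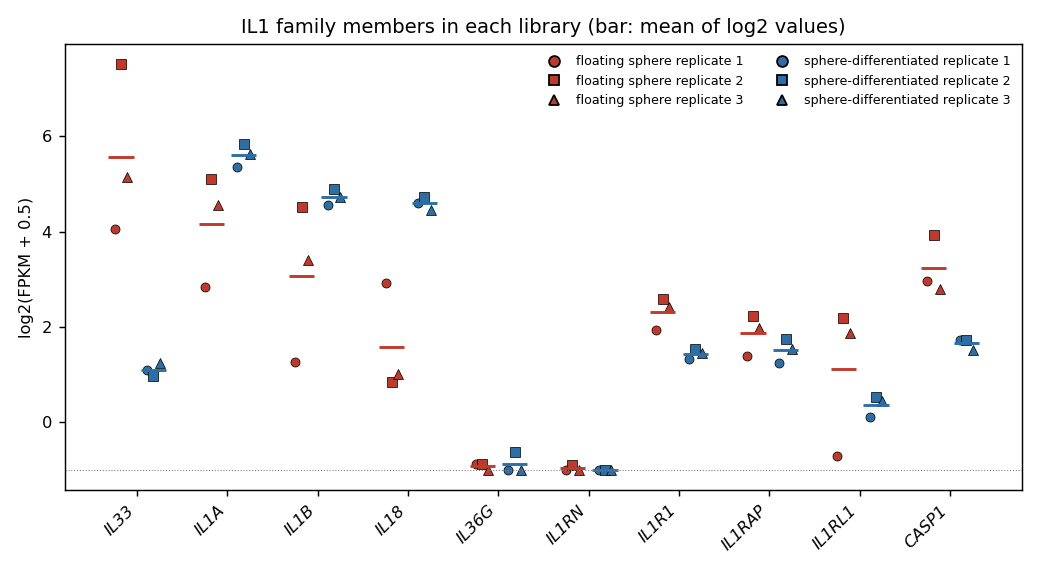
FPKM on a log axis (y) of the 10 members in each library, with floating spheres left of sphere-differentiated cells; points are libraries and bars are group means. IL33 stood at 16.0 to 182 FPKM in floating spheres and 1.46 to 1.85 FPKM in sphere-differentiated cells, whereas IL18 stood at 1.28 to 7.02 FPKM in floating spheres and 21.5 to 26.1 FPKM in sphere-differentiated cells.

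The other 3 detected ligands lay on the opposite side. IL1A, the intracellular IL1 alarmin, stood at 6.66, 33.7 and 23.2 FPKM in floating spheres, against 40.7, 56.9 and 49.1 FPKM in sphere-differentiated cells. No floating sphere library reached the lowest sphere-differentiated one, and replicate 1 was the lowest sphere. The difference was -1.45 (SE 0.52), and -0.78 without floating sphere replicate 1 or -1.91 without replicate 2.

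IL1B, the secreted inflammatory cytokine that needs cleavage, stood at 1.91, 22.2 and 10.1 FPKM in floating spheres, against 22.9, 29.2 and 26.1 FPKM in sphere-differentiated cells. The groups did not overlap, but floating sphere replicate 2 came within 1 FPKM of the lowest sphere-differentiated library. The means were 11.4 ± 10.2 FPKM in floating spheres and 26.1 ± 3.16 FPKM in sphere-differentiated cells. IL1B differed by -1.67 (SE 0.71), or by -0.77 without floating sphere replicate 1 and -2.39 without replicate 2.

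IL18, the interferon-γ-inducing member of the family, showed the largest deficit in floating spheres. It stood at 7.02, 1.28 and 1.5 FPKM in floating spheres, against 23.8, 26.1 and 21.5 FPKM in sphere-differentiated cells, and the mean was 7.29 times as high in sphere-differentiated cells. All floating spheres were below all sphere-differentiated libraries, and here replicate 1 was the highest sphere, where IL1A, IL1B and IL33 had their lowest. The difference was -3.02 (SE 0.51) and lay between -3.68, without floating sphere replicate 1, and -2.64 when single libraries were left out; the ratio of means became 17.1 without floating sphere replicate 1.

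The remaining ligand and the antagonist were at the limit of detection. IL36G, an epithelial agonist, had 1, 1 and 0 fragments in floating spheres and 0, 3 and 0 in sphere-differentiated cells. IL1RN, which occupies IL1R1 without signalling, had 0, 2 and 0 fragments in floating spheres and 0 in every sphere-differentiated library. A count of 0 allows up to 3 fragments for counting error alone, or 0.128 to 0.152 FPKM for IL36G and 0.0542 to 0.0642 FPKM for IL1RN depending on the library, so no fold was computed.

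These values gave the states different ligand compositions. Of the summed FPKM of IL33, IL1A, IL1B and IL18, IL33 made up 50.7%, 76.1% and 50.2% in floating spheres, while sphere-differentiated cells had 1.83%, 1.28% and 1.88%. IL1A held 14.1% to 33.2% in floating spheres, while sphere-differentiated cells had 45.7% to 50.0%, and IL1B 6.03% to 14.4% in floating spheres, while sphere-differentiated cells had 25.7% to 26.5%. IL33 was thus the most abundant of the 4 transcripts in each sphere and the least abundant in each sphere-differentiated library. IL18 stood at 22.2%, 0.536% and 2.15% in floating spheres, while sphere-differentiated cells had 26.7%, 23.0% and 21.8%.

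**Figure D2:**
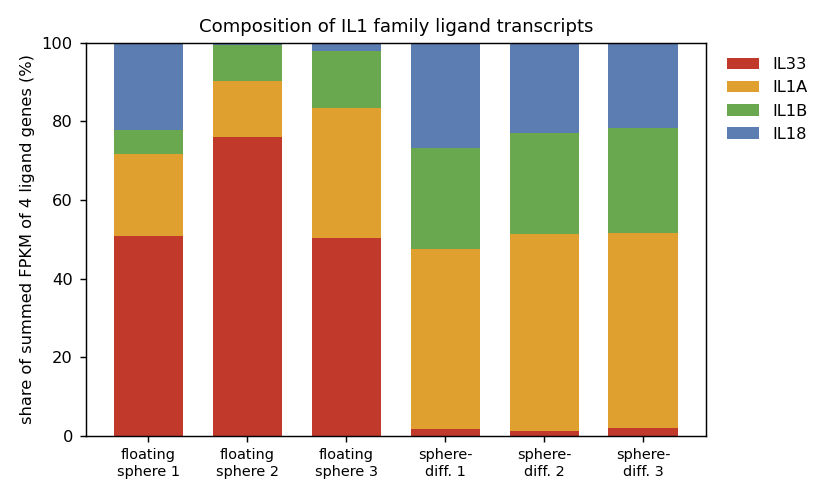
Share (y, percent of the summed FPKM of 4 ligands) of IL33, IL1A, IL1B and IL18 in each library (x), floating spheres on the left. IL33 made up 50.2% to 76.1% in floating spheres, while sphere-differentiated cells had 1.28% to 1.88%.

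Among the receptor chains, IL1R1, the signalling receptor for IL1α and IL1β, stood at 3.31, 5.51 and 4.82 FPKM in floating spheres, against 2.00, 2.40 and 2.22 FPKM in sphere-differentiated cells. The floating spheres were all higher, by 0.88 (SE 0.20), and by 0.74 to 1.07 with single libraries left out. IL1RAP, the accessory chain of the IL1 and IL33 receptors, stood at 2.11, 4.17 and 3.43 FPKM in floating spheres, against 1.88, 2.87 and 2.40 FPKM in sphere-differentiated cells. Its groups overlapped, because floating sphere replicate 1 lay within the sphere-differentiated range. The difference of 0.35 (SE 0.25) became 0.17 without floating sphere replicate 2, 0.22 without sphere-differentiated replicate 1 and 0.59 without floating sphere replicate 1.

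IL1RL1, the IL33 receptor chain, was split among the spheres. It stood at 0.114, 4.05 and 3.13 FPKM in floating spheres, against 0.582, 0.934 and 0.867 FPKM in sphere-differentiated cells, which is 11, 380 and 306 fragments against 53, 77 and 82. Floating sphere replicate 1 was below all sphere-differentiated libraries and replicates 2 and 3 were above them, a range of 35.5 times within the spheres. The difference of 0.75 (SE 0.70) was 1.66 without floating sphere replicate 1, 0.22 without replicate 2 and 0.38 without replicate 3. RefSeq gives IL1RL1 a pair of starts, with windows at chr2:102311313-102311612 and chr2:102337007-102337306, and the gene-level value does not separate the soluble decoy form of ST2 from the membrane receptor.

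CASP1, the protease that matures IL1β and IL18, stood at 7.26, 14.7 and 6.48 FPKM in floating spheres, against 2.82, 2.79 and 2.35 FPKM in sphere-differentiated cells. All 3 spheres were above all sphere-differentiated libraries, and replicate 2 was the highest. The floating spheres were higher by 1.57 (SE 0.29), between 1.23 and 1.79 with single libraries left out. The enzyme's transcript was therefore higher in the state in which the transcripts of its substrates IL1B and IL18 had the lower values. CARD16, a neighbour of CASP1, resembles its CARD-coding part, and whether fragments were assigned to the wrong one of these genes was not tested.

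In order of level, floating spheres had IL33, IL1A, IL1B, CASP1, IL1R1, IL18, IL1RAP, IL1RL1, IL36G and IL1RN, and the library ranges of neighbours were separate only between CASP1 and IL1R1 and between IL1RL1 and IL36G. Sphere-differentiated cells had IL1A, IL1B, IL18, CASP1, IL1RAP, IL1R1, IL33, IL1RL1, IL36G and IL1RN. There the ranges were separate between IL1A and IL1B, IL18 and CASP1, IL1R1 and IL33, IL33 and IL1RL1, and IL1RL1 and IL36G.

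In limma's fit over 15719 genes, 5279 (33.6%) passed an adjusted p of 0.05, and 4 of the 8 members tested did, with IL33, IL1R1 and CASP1 higher (15.8% of all genes) and IL18 lower (17.8% of all genes) in floating spheres. The groups did not overlap for 6 of the 8, beside 51.6% of all genes tested. The median difference was 0.55 over the 8 members and 0.0032 over all genes tested. The choice of the members used this contrast, so nothing is read from these counts.

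The sphere libraries kept a common order across most members. Replicate 2 was the highest sphere for 7 of the 8 members tested, beside 35.3% of all genes, and the order replicate 1, 3, 2 from low to high held for 6 of the 8 (IL33, IL1A, IL1B, IL1R1, IL1RAP and IL1RL1), beside 20.7% of all 15719 genes. IL18 had the opposite order, which 23.4% of all genes had, and CASP1 differed in placing replicate 3 below replicate 1. The log2 standard deviations in floating spheres were 1.65 for IL1B, 1.58 for IL1RL1, 1.18 for IL1A and 1.15 for IL18, at percentiles 97.7 to 99.5 of all genes, and 0.61 for CASP1, 0.43 for IL1RAP and 0.34 for IL1R1. The 3 sphere libraries thus differed among themselves more in ligands and ST2 than in IL1R1 and IL1RAP.

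**Figure D3:**
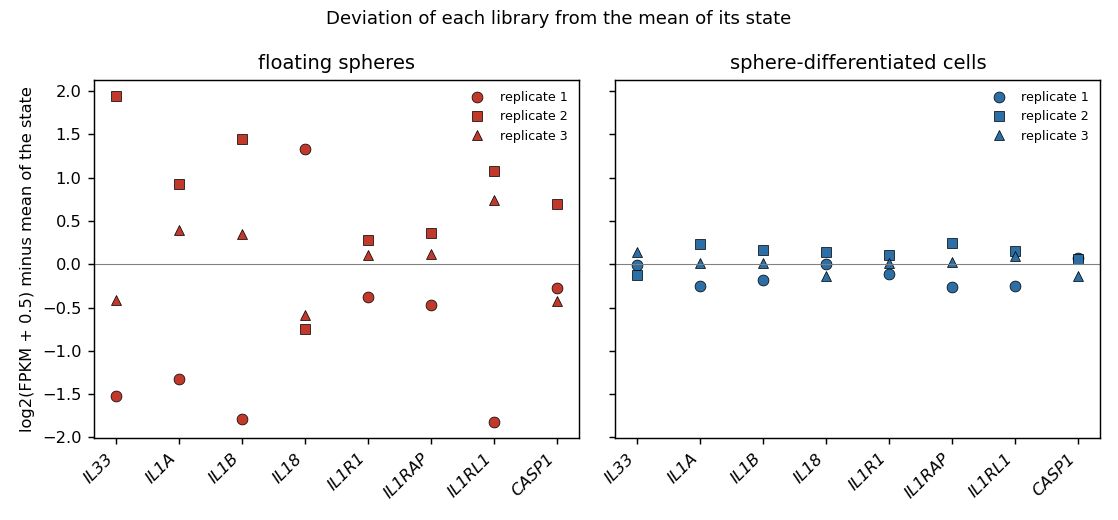
Deviation of each library from the mean of its state (y, log2(FPKM + 0.5)) for the 8 members tested, floating spheres in the left panel; markers give the replicate. Within floating spheres replicate 2 was highest for 7 of 8 members, and IL33 had a log2 standard deviation of 1.77 in floating spheres, while sphere-differentiated cells had 0.132.

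By the root mean square difference between centred log2 profiles over the 6 libraries, the protein-coding genes most like IL33 among 7821 compared were S100A9 (0.505), NPTX1 (0.532), INSIG1 (0.592), CASP14 (0.650) and ALDOC (0.673). The measure uses the values that chose IL33 and is a description. S100A9, an alarmin subunit of calprotectin, stood at 21.9, 219 and 116 FPKM in floating spheres, against 4.16, 4.11 and 5.37 FPKM in sphere-differentiated cells, and CASP14, a caspase of cornifying epithelium, at 28.9, 363 and 130 FPKM in floating spheres, against 1.5, 1.75 and 2.31 FPKM in sphere-differentiated cells. Both shared with IL33 the order of the spheres, with replicate 1 low, replicate 2 high and replicate 3 between them. CASP1 ranked 180, IL1A 7401, IL1B 7532 and IL18 7807 by the same measure.

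Of 7 alarmin genes outside the family 4 were tested, and 2 rose and 0 fell in floating spheres, beside 15.8% and 17.8% of all genes. Those that rose were S100A9, by 4.05 (SE 0.73, limma adjusted p = 0.00659), and its partner S100A8, by 3.26 (SE 0.68, limma adjusted p = 0.0107). S100A8 stood at 1.84, 18.7 and 10.0 FPKM in floating spheres, against 0.439, 0.208 and 0.302 FPKM in sphere-differentiated cells. It averaged 0.316 FPKM in sphere-differentiated cells, so it passed the filter only through the floating spheres. Replicate 2 was again the highest sphere and replicate 1 the lowest. TSLP, an epithelial cytokine below the filter, lay on the other side without overlap, at 0.0418, 0.115 and 0.0825 FPKM in floating spheres, against 0.383, 0.749 and 0.426 FPKM in sphere-differentiated cells. With no filter, on TPM, and without sphere-differentiated replicate 2, the list had 1 lower call beside the 2 higher ones. HSPA1A was not called, at 50.2, 44.8 and 44.4 FPKM in floating spheres and 116, 33.1 and 121 FPKM in sphere-differentiated cells (-0.74, limma adjusted p = 0.255). Nor was HMGB1, at 68.2, 39.6 and 44.9 FPKM in floating spheres and 38.4, 40.2 and 41.4 FPKM in sphere-differentiated cells (0.30, limma adjusted p = 0.291).

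The other family genes were mostly low. None of 5 further ligands reached the filter, and the highest was IL37, an anti-inflammatory member, at 0.0711, 0.804 and 0.421 FPKM in floating spheres, against 0, 0.0831 and 0.0724 FPKM in sphere-differentiated cells. Of 8 further receptors and binding proteins 3 were tested and 0 passed the limma test, beside 33.6% of all genes tested. IL18R1, the IL18 receptor chain next to IL1RL1, stood at 1.37, 4.00 and 3.30 FPKM in floating spheres, against 2.18, 2.15 and 2.21 FPKM in sphere-differentiated cells, with replicate 1 below and the other spheres above all sphere-differentiated libraries, as for IL1RL1. Its difference of 0.25 (SE 0.31, limma adjusted p = 0.576) became 0.63 without floating sphere replicate 1 (limma adjusted p = 0.0244) and -0.0054 without replicate 2. IL1RL2, the receptor chain for IL36 cytokines, stood at 0.79, 0.51 and 0.646 FPKM in floating spheres, against 0.334, 0.448 and 0.643 FPKM in sphere-differentiated cells (0.24, limma adjusted p = 0.501), and IL18BP, the soluble inhibitor of IL18, at 2.66, 3.59 and 2.85 FPKM in floating spheres, against 3.29, 3.02 and 3.02 FPKM in sphere-differentiated cells (-0.04, limma adjusted p = 0.867), with overlap in both. Exons of IL18R1 overlap 1.65% of the exonic length of IL1RL1, and those of NUMA1 overlap 15.6% of that of IL18BP. How fragments in overlapping genes were counted is not given.

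Of 20 genes for processing and inflammasomes 14 were tested, and 4 rose and 0 fell in floating spheres, which is 28.6% of those tested beside 33.6% of all genes, with a median of 0.63 beside 0.0032. GSDMD, the pore through which mature IL1β and IL18 leave the cell, stood at 34.1, 32.6 and 32.9 FPKM in floating spheres, against 15.0, 9.68 and 12.6 FPKM in sphere-differentiated cells, with no overlap and a rise of 1.40 (SE 0.17, limma adjusted p = 0.00191). CASP8, an apoptotic caspase that can also cleave IL1β, rose by 0.72 (SE 0.13, limma adjusted p = 0.00673), with 8.36 to 10.3 FPKM in floating spheres and 5.30 to 5.62 FPKM in sphere-differentiated cells. Both were near-constant among the spheres, unlike the ligands.

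The other calls in this list depended on the libraries and settings used. CASP4, a sensor of intracellular lipopolysaccharide, stood at 9.24, 17.1 and 8.27 FPKM in floating spheres, against 6.06, 6.15 and 5.16 FPKM in sphere-differentiated cells, a rise of 0.87 (SE 0.26, limma adjusted p = 0.0388) whose adjusted p was 0.0867 to 0.121 when any one sphere-differentiated library was left out and was 0.0936 with no filter on low values and 0.0605 on TPM. The DNA sensor AIM2 rose by 1.00 (SE 0.32, limma adjusted p = 0.0475), at 0.535, 1.43 and 0.791 FPKM in floating spheres against 0.314, 0.139 and 0.121 FPKM in sphere-differentiated cells, and lost its call in 7 settings, at an adjusted p of 0.0508 to 0.136. AIM2 averaged 0.191 FPKM in sphere-differentiated cells, so it passed the filter, and entered the count above, only through the floating spheres. Without floating sphere replicate 2 it fell below the filter and was not tested. CARD16, a CASP1-related inhibitor, did not pass (1.37, SE 0.48, limma adjusted p = 0.0614), though it stood at 6.01, 27.4 and 10.1 FPKM in floating spheres and 3.93, 3.88 and 5.29 FPKM in sphere-differentiated cells; without floating sphere replicate 1 its adjusted p was 0.0158. The adaptor PYCARD stood at 2.87, 1.44 and 0.213 FPKM in floating spheres, against 0.228, 0.0420 and 0 FPKM in sphere-differentiated cells (limma adjusted p = 0.0685), and NLRP3 was below the filter. The antisense gene PYCARD-AS1 overlaps 59.7% of the exonic length of PYCARD. How fragments in both genes were counted is not given, so the low values of PYCARD may be too low.

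All 23 signalling genes were tested, and 2 rose and 6 fell in floating spheres, which is 34.8% of those tested beside 33.6% of all genes, with a median of -0.15 beside 0.0032. IRAK2, a kinase-like relay below MYD88, rose by 1.07 (SE 0.25, limma adjusted p = 0.0158), with 16.6, 34.9 and 23.7 FPKM in floating spheres, against 11.3, 10.8 and 11.4 FPKM in sphere-differentiated cells. Its adjusted p was 0.0616 without sphere-differentiated replicate 2 and 0.0516 without replicate 3. TAB1, a partner of the kinase TAK1, stood at 9.84 to 10.1 FPKM in floating spheres and 6.16 to 7.96 FPKM in sphere-differentiated cells, a rise of 0.46 (SE 0.14, limma adjusted p = 0.0367) that lost its call in 9 settings, at 0.0523 to 0.125.

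Among the genes that fell was PELI2, an E3 ligase for IRAK proteins, at 0.0475, 0.137 and 0.169 FPKM in floating spheres, against 1.82, 2.04 and 1.78 FPKM in sphere-differentiated cells (-1.95, SE 0.22, limma adjusted p = 0.00144). PELI2 averaged 0.118 FPKM in floating spheres, so it passed the filter only through the sphere-differentiated cells. CHUK, which encodes IKKα, fell to 7.50, 6.18 and 7.05 FPKM in floating spheres, against 12.8, 16.6 and 13.1 FPKM in sphere-differentiated cells (-0.98, SE 0.15, limma adjusted p = 0.00394). TAB2, an adaptor of TAK1, fell by 0.84 (limma adjusted p = 0.00713). These 3 genes did not overlap between the states, and the spheres lay close together for CHUK and TAB2.

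MAP3K8, a kinase upstream of ERK, fell by 0.59 (limma adjusted p = 0.0133, 0.0501 to 0.0635 without single sphere-differentiated libraries). PELI1, another E3 ligase of the pathway, fell by 0.90 (limma adjusted p = 0.0158, but 0.0645 without sphere-differentiated replicate 2 and 0.0594 without replicate 3). NFKB1, the p105/p50 subunit, fell by 0.68 (limma adjusted p = 0.0376, but 0.0817 to 0.117 without single sphere-differentiated libraries and 0.0791 with no filter). MAP3K8 and NFKB1 were not called when any single sphere-differentiated library was left out, nor was PELI1 without replicate 2 or 3. Leaving out sphere-differentiated replicates 1, 2 and 3 in turn also lowered the number of genes called, from 5279 to 3536, 3018 and 2806. The core adaptor MYD88 gave no call, at 13.2, 12.6 and 13.2 FPKM in floating spheres and 11, 12 and 11.1 FPKM in sphere-differentiated cells (0.19, limma adjusted p = 0.254).

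**Figure D4:**
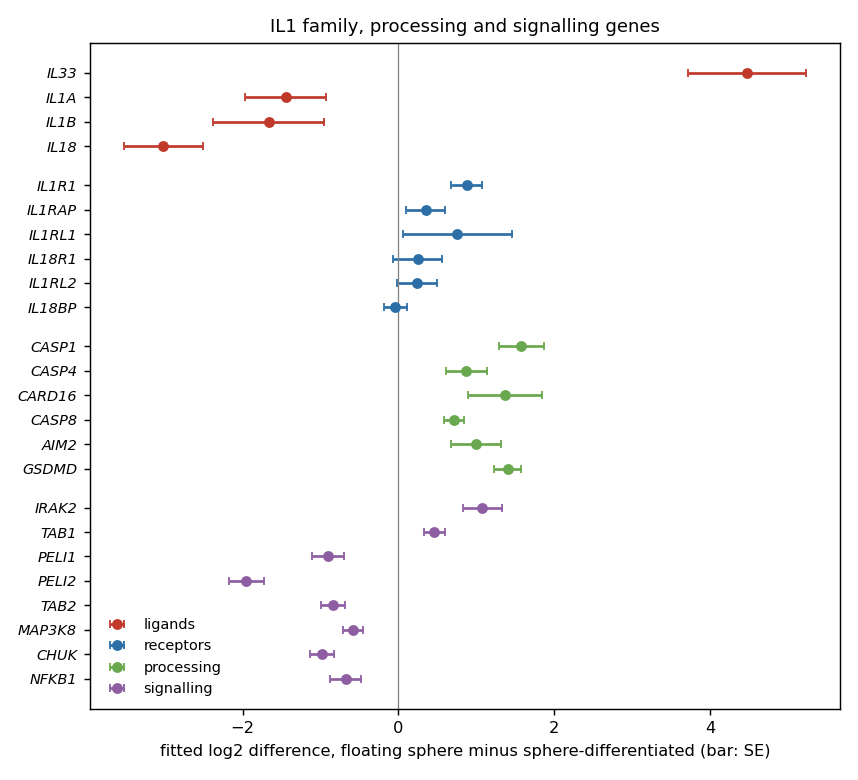
Difference in log2(FPKM + 0.5), floating spheres minus sphere-differentiated cells, with its standard error, grouped by role. Drawn are the members and the further receptors and binding proteins that were tested. Of the processing genes outside the members, only those that passed and CARD16 are drawn, and of the signalling genes only those that passed. Other genes tested without a call, such as MYD88, are left out. The genes that passed the test across all genes are named in the text. IL33 stood at 4.47 and IL18 at -3.02.

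Transcripts known to respond to IL1 and NF-κB moved in both directions. Of 27 genes 26 had a single entry and 20 were tested, of which 6 rose and 6 fell in floating spheres, beside 15.8% and 17.8% of all genes, with a median of 0.30. CSF3, the granulocyte growth factor, stood at 23.5, 45.4 and 41.6 FPKM in floating spheres, against 5.06, 3.67 and 5.42 FPKM in sphere-differentiated cells (2.80, SE 0.27, limma adjusted p = 0.000898). The other 5 that rose were TNFAIP3, the deubiquitinating enzyme A20, at 20.4, 12.7 and 11 FPKM in floating spheres, against 3.75, 3.77 and 4.58 FPKM in sphere-differentiated cells (1.70, SE 0.23, limma adjusted p = 0.00261), its partner TNIP1 (1.19, limma adjusted p = 0.00562), the RNase ZC3H12A that degrades cytokine mRNA (1.14, limma adjusted p = 0.00538), the nuclear IκB protein NFKBIZ, which can also activate target genes (0.84, limma adjusted p = 0.0105), and NFKBIA, which encodes IκBα (0.65, limma adjusted p = 0.00996, but 0.0689 without sphere-differentiated replicate 3).

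IL6, a cytokine induced by IL1, fell the most, at 34.7, 15.8 and 21.7 FPKM in floating spheres, against 438, 472 and 479 FPKM in sphere-differentiated cells (-4.31, SE 0.27, limma adjusted p = 0.000323). LCN2, an iron-scavenging secreted protein, stood at 3.06, 0.691 and 2.65 FPKM in floating spheres, against 13.0, 8.64 and 10.5 FPKM in sphere-differentiated cells (-2.22, limma adjusted p = 0.00664), the neutrophil chemokine CXCL2 at 9.15, 6.99 and 13.2 FPKM in floating spheres, against 33.0, 24.3 and 34.4 FPKM in sphere-differentiated cells (-1.62, limma adjusted p = 0.00361), and the adhesion molecule ICAM1 at 44.6, 87.8 and 83.1 FPKM in floating spheres, against 167, 161 and 165 FPKM in sphere-differentiated cells (-1.25, limma adjusted p = 0.0105). In all 4 the groups were apart. Other genes overlap 23.6% of the exonic length of ICAM1 and 20.7% of that of IL6, and the counting of shared fragments is not given. PTGS2, the prostaglandin synthase COX-2 (-1.10, limma adjusted p = 0.0307), and the nuclear IκB protein BCL3 (-0.75, limma adjusted p = 0.0315) fell as well, but neither passed when any one sphere-differentiated library was left out (0.0658 to 0.111 for PTGS2 and 0.0765 to 0.102 for BCL3) or with no filter (0.132 for PTGS2 and 0.0728 for BCL3).

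The chemokines CXCL8 and CXCL1 gave no call. CXCL8 stood at 15.5, 22.2 and 11.5 FPKM in floating spheres, against 18.4, 21.5 and 27.1 FPKM in sphere-differentiated cells (-0.47, limma adjusted p = 0.19), and CXCL1 at 64.8, 23.8 and 98.4 FPKM in floating spheres, against 31.0, 33.0 and 40.7 FPKM in sphere-differentiated cells (0.62, limma adjusted p = 0.334). Both overlapped between the states.

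**Figure D5:**
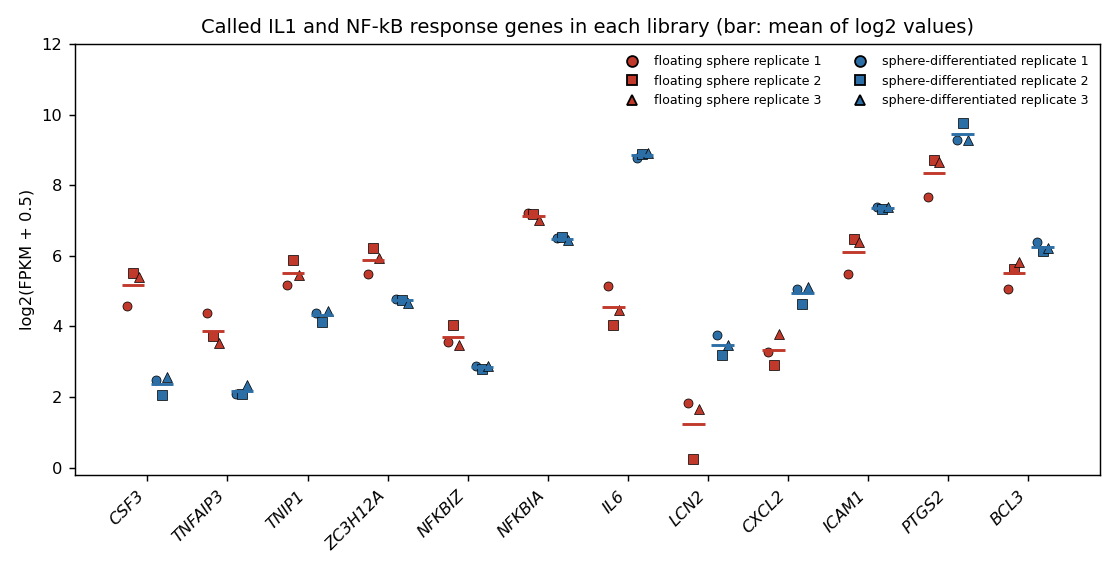
FPKM on a log axis (y) of IL1 and NF-κB response genes in each library, floating spheres left of sphere-differentiated cells. CSF3 stood at 23.5 to 45.4 FPKM in floating spheres and 3.67 to 5.42 FPKM in sphere-differentiated cells, and IL6 at 15.8 to 34.7 FPKM in floating spheres and 438 to 479 FPKM in sphere-differentiated cells.

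Markers of other cells that make or sense these cytokines were measured beside the members; in bulk RNA, fewer cells of a type and less RNA per cell cannot be told apart. Of 10 immune markers, PTPRC and LYZ were at 0 in every library and only CD14 reached 1 FPKM, with sums of 8.81 to 16.3 FPKM in floating spheres and 8.46 to 11.7 FPKM in sphere-differentiated cells. Other genes overlap 85.8% of the exonic length of CD68 and 34.0% of that of LYZ. How the shared fragments were counted is not given, so these markers may read too low. Of 5 mast cell and basophil markers, KIT, CPA3, TPSAB1 and MS4A2 were at 0 in every library. Of 6 endothelial markers CDH5 and KDR were at 0 and only PECAM1 reached 1 FPKM, with sums of 4.71 to 7.61 FPKM in floating spheres and 2.56 to 3.18 FPKM in sphere-differentiated cells. Fibroblast markers (7, with THY1 at 0) summed to 4.08 to 6.85 FPKM in floating spheres and 2.68 to 2.97 FPKM in sphere-differentiated cells, and 14 squamous differentiation markers, with KRT1, SPRR1B, SPRR2A and KLK5 at 0, to 39.3 to 55.3 FPKM in floating spheres and 30.1 to 46.0 FPKM in sphere-differentiated cells. Within these lists PECAM1 (0.99, limma adjusted p = 0.00866), COL3A1 (0.86, limma adjusted p = 0.0107), CNFN (2.20, limma adjusted p = 0.000434) and KRT16 (1.24, limma adjusted p = 0.0107) rose, and KRT14 (-2.61, limma adjusted p = 0.00181) fell. The part of the endothelial, fibroblast and squamous markers in the members' values was not tested.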

How the data were processed

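RNA libraries (NEBNext Ultra kit, paired-end sequencing on NovaSeq) were made from 3 floating sphere and 3 sphere-differentiated SKOV3 samples, grouped by the sample labels. The authors deposited 1 table of FPKM values for 58735 entries on hg38. The submitters' processing notes name featureCounts 1.5.0-p3 and DESeq2 1.20.0, and the study's methods name edgeR. Which aligner, annotation release and strand setting were used is not given in the sources used here. FPKM values times GENCODE 29 exon lengths gave whole fragments within 0.01 for the entries matched, with 14725462 to 16376331 fragments per library, which sets the counting error of low genes.

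Genes averaging 0.5 FPKM or more were fitted as log2(FPKM + 0.5) with limma 3.58.1 (R 4.3.3, trended eBayes) on all 6 libraries, floating sphere minus sphere-differentiated, with Benjamini-Hochberg adjustment over 15719 genes and calls at an adjusted p under 0.05. The fit was also run on simulated counts with planted differences. The simulation gave both states the same dispersion, whereas the floating spheres here varied more. It does not show how the fit behaves with such unequal spread. Other pseudocounts, filters, TPM, voom on recovered fragments, the replicate number as a block and leaving out each library were tried. The replicate numbers did not pair the samples, with correlations of deviations of -0.0205, -0.0738 and -0.0403.

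The members and lists were chosen with earlier results of these data known. Named by rule were all members, up to 5 genes per other list that passed the fit with the smallest adjusted p, family ligands and receptors averaging 0.5 FPKM or more in a state, and the 5 genes most like IL33. CARD16, PYCARD, NLRP3, IL37, IRAK2, TAB1, NFKB1, MYD88, TNIP1, NFKBIZ, NFKBIA, LCN2, ICAM1, PTGS2, BCL3, CXCL1, CXCL8, RANBP6, ERMP1, CARD17, TSLP, HSPA1A, HMGB1 and MUC16 were named after their values were seen. SOD2 shares its name between entries and was left out. Promoter windows came from RefSeq (GRCh38.p14). The NF-κB consensus searched replaced a looser pattern after the matches of that pattern were seen.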

Additional observations from a re-analysis of the deposited data

How the results depend on the processing

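The number of genes changed was 5279, and 3402 with a filter at a mean of 5 FPKM and 2806 (without sphere-differentiated replicate 3) to 5337 with single libraries left out; it was 3536 without sphere-differentiated replicate 1 and 3018 without replicate 2. Receptor genes outside the members gave 1 call with no filter and 1 on TPM, both IL1RAPL2, and 0 to 1 with single libraries left out, the 1 being IL18R1 without floating sphere replicate 1. Processing genes gave 2 calls with no filter, 7 with voom and 2 to 7 with single libraries left out (7 without floating sphere replicate 1, 2 without each sphere-differentiated library). Signalling genes gave 3 to 8 with single libraries left out, 3 without sphere-differentiated replicate 2 or 3, response genes 9 to 15, and alarmin genes 2 to 3. The IL33 difference stayed positive over all settings, at 3.50 to 5.24, while its spread among floating spheres was 0.781 to 2.45 with single libraries left out. Uncalled differences changed sign for IL18R1 without floating sphere replicate 2 (-0.0054) and for IL18BP without floating sphere replicate 1 (0.036); single libraries left out gave -0.0054 to 0.63 for IL18R1 and -0.15 to 0.036 for IL18BP. The cause of these moves was not tested. With the replicate number as a block, 4088 genes changed, IL33 differed by 4.47 (SE 0.65), and signalling, response and processing gave 6, 11 and 4 calls. NFKB1 (adjusted p 0.0641), BCL3 (0.0606), AIM2 (0.0931) and TAB1 (0.0796) were not called with it; the numbers did not pair the samples. With 3 libraries in each state a standard deviation is itself imprecise, and depth limits IL36G and IL1RN.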

Other observations

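Of 8 protein-coding genes within 500 kb on either side of IL33 5 were tested, and besides IL33 the limma fit called ERMP1 and RANBP6, both lower in floating spheres. Of all genes tested, 33.6% were called, and 17.8% were called lower. RANBP6 stood at 7.39, 6.98 and 6.81 FPKM in floating spheres, against 14.3, 18.1 and 15.4 FPKM in sphere-differentiated cells (-1.12, limma adjusted p = 0.00185), and ERMP1 at 2.01, 3.01 and 2.32 FPKM in floating spheres, against 6.56, 8.03 and 6.34 FPKM in sphere-differentiated cells (-1.35, limma adjusted p = 0.00218).

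IL1RAPL2, a family receptor known from the nervous system, was below the filter at 0.834, 0.779 and 0.505 FPKM in floating spheres, against 0.120, 0.222 and 0.0772 FPKM in sphere-differentiated cells, with no overlap. CARD17, a CASP1-related gene, was at 0, 1.79 and 0.0955 FPKM in floating spheres and 0 in each sphere-differentiated library.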
